A study of Mus musculus with 2 samples.

Results

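The genes described here mark the layers of the cerebral cortex or its excitatory neurons. A total of 35 genes was listed by name, and 33 of them were measured among the 18193 genes of the arrays. A gene counted as measured when at least 1 probe set, the group of short probes that reports a transcript, carried its symbol and no other, and its value came from the brightest such probe set, by the mean of both arrays. Etv1, a layer 5 transcription factor gene, has 3 probe sets that also carry a second symbol, and Bhlhe22 has no named probe set here, so neither was given a value. Total RNA from the cortex of naive male mice of the C57BL/6J strain, at 2.5 months of age, was measured on Affymetrix Mouse Genome arrays. The groups were WT mice and their P4H-TM KO littermates (P4h-tm-/-, called KO from here on), in which the gene of the transmembrane prolyl 4-hydroxylase is disrupted, and the RNA of 4 mice was pooled onto 1 array per genotype. Hence no difference has a replicate check, no p-value or SD between animals can be given, and a gene was set apart only where it differed by at least 1.5-fold. The log2 value of P4htm, the targeted gene, was 11.05 on the WT array and 9.10 on the KO array; whether its probe sets cover the disrupted part was not examined.

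The cortex is built of layers of neurons that are born in sequence, deep layers first, and each layer projects to its own targets. Upper layer neurons connect cortical areas with each other and receive thalamic input, layer 5 neurons project to the spinal cord, brainstem and striatum, and layer 6 neurons project to the thalamus. The subplate is the earliest born layer below them, and persists in the adult mouse as a thin sheet above the white matter. Transcription factors such as Cux2, Fezf2 and Tbr1 set these identities during development and stay detectable in adult tissue. The genes were therefore grouped into upper layer, layer 5, layer 6 and subplate genes and genes of several layers. In bulk tissue, fewer cells of a type and less RNA per cell cannot be told apart.

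The subplate gene Ccn2 was the only member at least 1.5-fold higher in KO, and 0 of the 33 members were at least 1.5-fold lower. Among all 18193 genes, 0.610% were at least 1.5-fold higher and 0.148% at least 1.5-fold lower. Of the members, 19 had higher and 14 had lower values in KO, with a median log2 difference of 0.04, and 87.9% of them differed by at most 0.2. The median over all genes was 0, and 84.3% of all genes differed by at most 0.2, so the share of members within that range was near that of all genes. A signal filter on the mean of both arrays was set at the median of all probe sets, a log2 value of 6.385. It was passed by 29 members, and Otof, Rspo1, Foxp2 and Nxph4 lay below it. Above the filter, where 0.631% of 11730 genes were at least 1.5-fold higher and 0.0512% at least 1.5-fold lower, the member differences ran from −0.17 for Neurod6 to 0.83 for Ccn2. There, 93.1% of the members and 91.1% of all genes differed by at most 0.2.

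**Figure D1:**
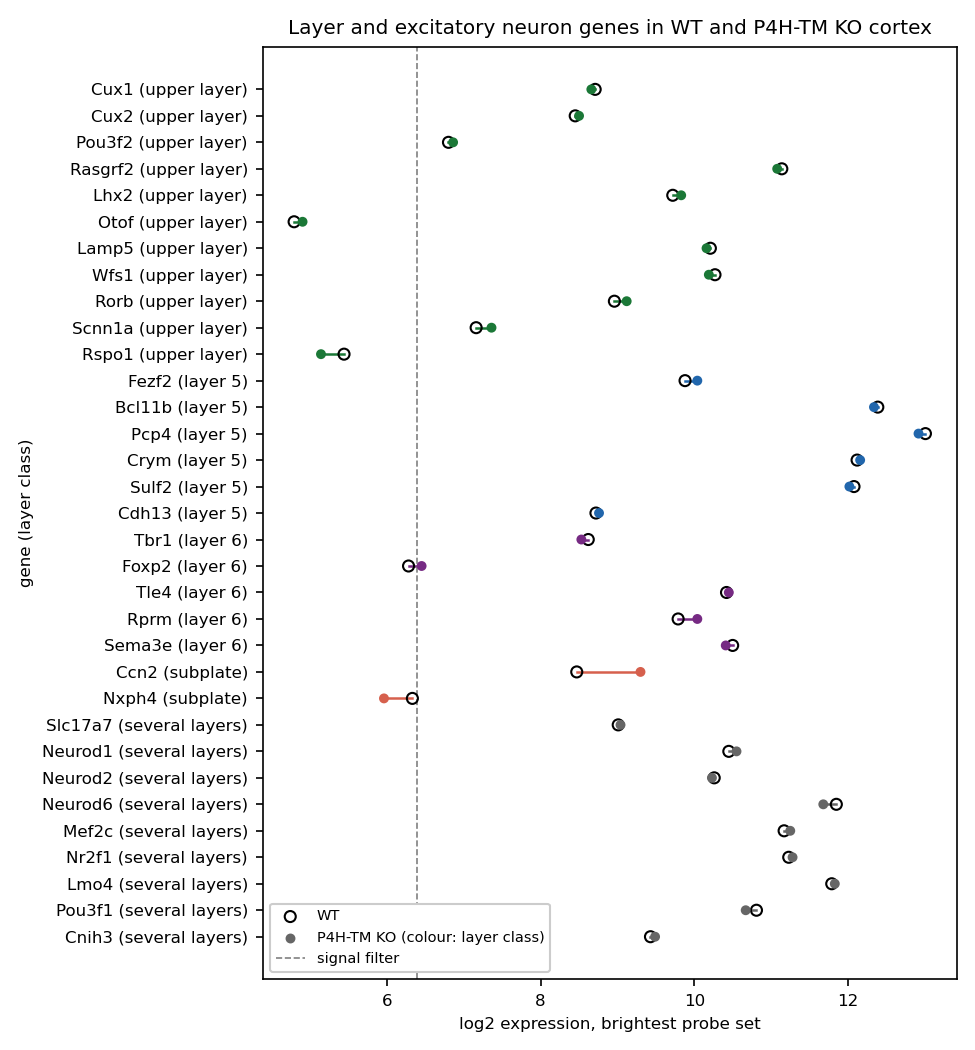
Log2 expression on the brightest probe set (horizontal axis) of each measured gene (vertical axis, with its layer class) in WT (open circles) and KO (points coloured by class), 1 array per genotype and so no error bars; the dashed line is the signal filter at 6.385. The circles and points of most genes touch, and the longest line belongs to Ccn2, from 8.47 to 9.30.

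The upper layer genes, which include genes of layers 2 and 3 and of layer 4, had a median log2 difference of 0.05, with 6 of 11 higher and 5 lower in KO. The homeobox genes Cux1 and Cux2, which control dendrite branching and synapse formation of upper layer neurons, had log2 values of 8.71 and 8.45 in WT and of 8.66 and 8.50 in KO. The POU factor gene Pou3f2 had 6.80 in WT and 6.86 in KO, and the LIM homeobox gene Lhx2 had 9.72 and 9.83. Of these genes Lhx2 differed most, by 0.11. For scale, log2 differences on several probe sets of 1 gene had a pooled SD of 0.10 over the 5101 genes with several probe sets above the filter. This SD describes the pair of arrays and not the animals.

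Rasgrf2, which encodes an exchange factor of Ras, had 11.14 in WT and 11.08 in KO. Lamp5, a membrane protein gene that some interneurons also express, had 10.21 and 10.16, and Wfs1, which encodes an ER membrane protein and is also expressed in the hippocampus, had 10.27 and 10.19. The values of these genes were slightly lower in KO. The layer 4 genes did not share a direction: Rorb, a nuclear receptor gene of layer 4 neurons, had 8.96 in WT and 9.12 in KO. Scnn1a, a sodium channel subunit gene, had 7.16 and 7.36, while Rspo1, a gene of a secreted Wnt agonist, had 5.44 and 5.14. The Scnn1a difference of 0.20 was matched or passed in size by 10.1% of the genes above the filter, and the Rspo1 difference of −0.30 by 12.8% of the 6463 genes below it. Otof, which encodes a calcium sensor of vesicle fusion, had 4.79 and 4.90, also below the filter.

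The 6 measured layer 5 genes had a median log2 difference of −0.005, with 3 higher and 3 lower, and they covered the narrowest range of the layer classes, from −0.09 to 0.16. Fezf2, the transcription factor gene that specifies corticospinal neurons, had 9.88 in WT and 10.04 in KO. Bcl11b (CTIP2), which acts downstream of Fezf2, had 12.39 and 12.34. Thus the pair of factors differed in opposite directions, each by a small amount. Crym, which encodes a thyroid hormone binding protein, had 12.12 and 12.16, and Cdh13, a cadherin gene, had 8.72 and 8.76. Pcp4, a gene of a calmodulin regulator, had 13.01 and 12.92, and the sulfatase gene Sulf2 had 12.08 and 12.02, although on a probe set whose name marks possible matches to other transcripts. Bcl11b, Pcp4 and Foxp2 are also expressed in the striatum, which lies below the cortex. Of 10 measured striatal markers 7 had lower values in KO, with a median of −0.08 and a summed signal of 5530 in WT and 5458 in KO, 3 of the 10 lay below the filter, and their part in these values was not tested.

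Among the layer 6 genes the median log2 difference was 0.03, with 3 of 5 higher. Tbr1, the T-box gene that specifies corticothalamic neurons, had 8.62 in WT and 8.53 in KO, and Tle4, a corepressor gene of the same neurons, had 10.42 and 10.45. Sema3e, which encodes a secreted guidance cue, had 10.50 and 10.41. Rprm, a gene linked to cell cycle arrest that marks layer 6, had 9.79 and 10.04. Its difference of 0.25 was the second largest in size among members above the filter, and 5.67% of all genes above the filter differed by as much or more. Foxp2, a forkhead gene, had 6.28 and 6.45 on its brightest probe set, but this direction was not shared by its other probe sets.

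The 2 subplate genes went apart. Ccn2 (connective tissue growth factor), which encodes a secreted matrix protein, had 8.47 in WT and 9.30 in KO, a difference of 0.83 or 1.78-fold, and 0.341% of the genes above the filter differed by as much or more in either direction. Nxph4, which encodes a neurexophilin, had 6.33 in WT and 5.96 in KO, a difference of −0.37 on a signal below the filter, where 6.51% of the genes differed by as much or more. Each of these genes has 1 probe set, so neither value has a second reading. The class median of 0.23 lies between a single higher and a single lower gene and describes neither.

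Among other genes known from the subplate and the deepest part of layer 6, Moxd1, Nr4a2 and Cplx3 were higher and Lpar1 was lower in KO. Moxd1, a gene of a copper-dependent monooxygenase family, had 7.98 in WT and 8.43 in KO. The nuclear receptor gene Nr4a2, which is also induced by neuronal activity, differed by 0.26, with a range from −0.04 to 0.45 over its 6 probe sets. Cplx3, a complexin gene, differed by 0.18, and Lpar1, which is also expressed in oligodendrocytes, by −0.22. None of them reached 1.5-fold, and Moxd1 and Cplx3 have 1 probe set each. Moxd1, Nr4a2 and Cplx3 were named after their values were seen. Over the 13 measured other layer 6 and subplate genes the median was 0.03, and 8 of the 13 differed by at most 0.2.

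Ccn2 is also known outside the subplate, in fibroblasts, and responds to growth factors. On the same pair of arrays, 13 of 14 measured meninges markers had higher values in KO, with a median log2 difference of 0.375 and 5 at 1.5-fold or more. Their summed signal was 17619 in WT and 22963 in KO, and 1 of the 14, Slc47a1, lay below the filter. Most of this sum came from Ptgds, with 13.75 in WT and 14.04 in KO. The list ranged widely, from −0.01 for Slc22a6 to 0.93 for Igfbp2 and Slc13a4. Foxc1 differed by 0.09, the fibroblast collagen gene Col1a1 by 0.10, Lum by 0.27, Aldh1a2 by 0.37 and Islr by 0.38. Col1a1 was dim, at 6.42 in WT. Col1a2 differed by 0.40, with a range from −0.25 to 0.53 over its 3 probe sets, and Ogn by 0.70. Dcn differed by 0.90 on one probe set and by 0.10 on the other. All 14 measured choroid plexus markers were higher, with a median of 1.525. Their summed signal was 25986 in WT and 38125 in KO, most of it from Ttr. By the mean of both arrays 1 of them lay below the filter, and Aqp1 and Tmem72 passed it only through KO. In WT these genes had 5.96 and 6.26, below the filter value, and in KO 7.43 and 7.12. Of 13 immediate early genes, which respond to cell stimulation, 12 were higher, with a median of 0.35, and 2 lay below the filter. Their summed signal was 8948 in WT and 11525 in KO, most of it from Egr1, with 12.31 and 12.61. Ccn1, a relative of Ccn2 on that list, had 6.72 in WT and 6.64 in KO on the brightest of its 4 probe sets, which ranged from −0.11 to 0.34 in difference. Whether any of these tissues or the state of the animals contributes to the Ccn2 value was not tested.

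The genes of several layers and of excitatory neurons in general had a median log2 difference of 0.04, with 6 of 9 higher. Slc17a7 (VGLUT1), which loads glutamate into the synaptic vesicles of cortical excitatory neurons, had 9.01 in WT and 9.04 in KO. The neurogenic bHLH genes Neurod1, Neurod2 and Neurod6 had 10.45, 10.26 and 11.85 in WT and 10.55, 10.23 and 11.68 in KO. The difference of −0.17 for Neurod6 was the lowest of the members above the filter, and 14.3% of genes above the filter differed by as much or more. Mef2c, a transcription factor gene involved in synapse regulation, had 11.17 and 11.25. Nr2f1 (COUP-TFI) and Lmo4, which are expressed in gradients across the cortical surface, had 11.23 and 11.79 in WT and 11.28 and 11.83 in KO, so both were nearly equal between the pools. Pou3f1, a POU factor gene of layers 2, 3 and 5, had 10.81 and 10.67, and Cnih3, which encodes an auxiliary protein of AMPA receptors, had 9.43 and 9.49.

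**Figure D2:**
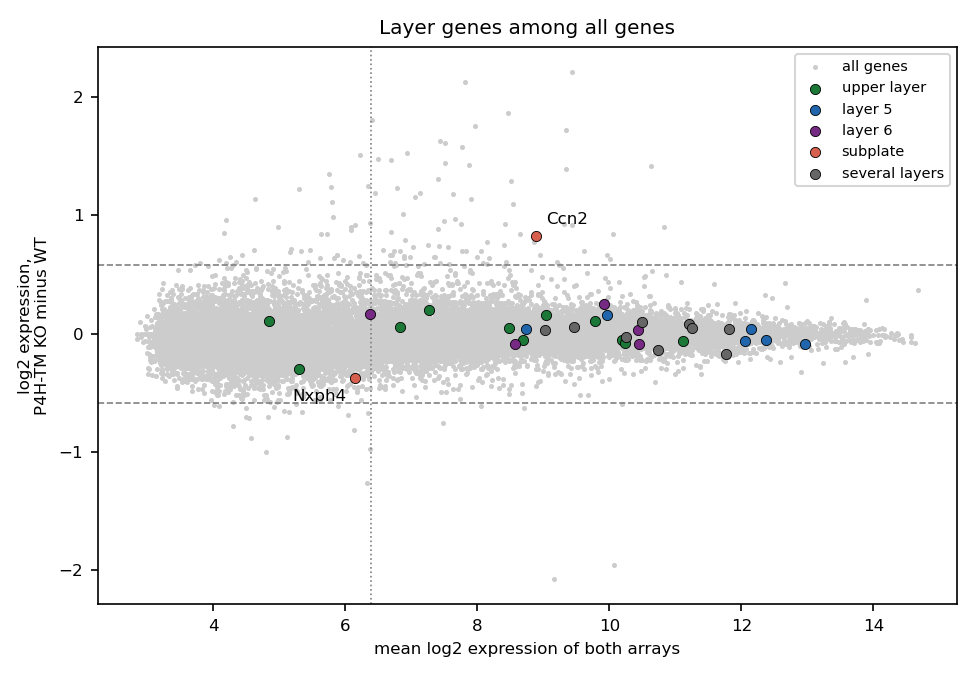
Log2 expression in KO minus WT (vertical axis) against the mean log2 expression of both arrays (horizontal axis) for 18193 genes (grey) and the 33 layer and excitatory neuron genes (coloured by class); dashed lines mark 1.5-fold and the dotted line the signal filter. The coloured points lie within the grey band around 0 except Ccn2 at 0.83.

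Compared with each other, the upper layer, layer 5 and layer 6 medians of 0.05, −0.005 and 0.03 differed by at most 0.055 on the log2 scale. With 1 array per genotype, a shift of one layer class against another was not tested. The subplate median was 0.18 above the upper layer median and 0.2 above that of layer 6, through Ccn2.

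The members have 75 probe sets in all, of which 40 gave higher, 34 lower and 1 equal values in KO, with a median log2 difference of 0.04. The Ccn2 probe set was the 1 that reached 1.5-fold. Of the 15 members with several probe sets, 4 were higher on each, 3 were lower on each and 8 were mixed. Mef2c was higher on all 5, by 0.08 to 0.18, and Rorb on all 3, by 0.06 to 0.16. Pou3f2 and Neurod1 were likewise higher on each. Sema3e was lower on all 4 probe sets, with differences from −0.19 to −0.09. Rasgrf2 and Sulf2 were lower on all 3, down to −0.14 and −0.06. For these genes the direction was repeated within this pair of pools, although probe sets of 1 gene share the RNA and are no replicates.

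Foxp2 had the most divided readings, with 0.17 on its brightest probe set and values from −0.32 to −0.10 on the other 5, and all 6 lay below the filter. Its average over probe sets was −0.165. Cux1, with 9 probe sets, ranged from −0.19 to 0.38, where the latter was a dim probe set, and averaged 0.07. The probe sets of Pou3f1 differed by −0.14 and 0.16. The Bcl11b probe sets ran from −0.11 to 0.00, those of Cux2 from −0.08 to 0.20, and those of Tle4 from −0.13 to 0.06. For Neurod2 the dimmest of 3 probe sets differed by −0.29, and for Cdh13 one of the dim ones by 0.53, while the bright ones stayed between −0.03 and 0.13.

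**Figure D3:**
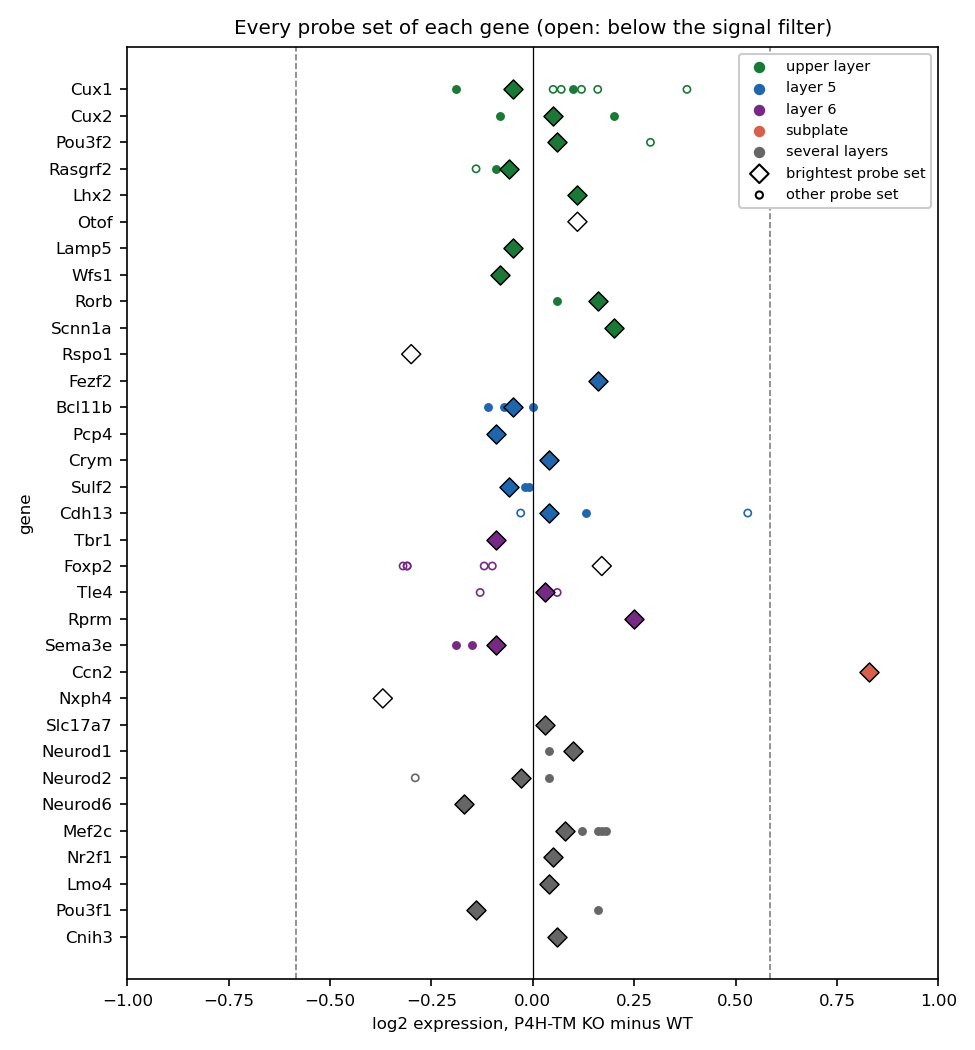
Log2 expression in KO minus WT (horizontal axis) on every probe set of each gene (vertical axis), with diamonds for the brightest probe set, small circles for the others and open symbols for a signal below the filter; dashed lines mark 1.5-fold. The filled symbols lie between −0.19 and 0.25 apart from Ccn2 at 0.83, and the open ones spread more widely.

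A further 53 genes of the same layers or of excitatory neurons, 52 of them measured, had a median log2 difference of 0.015, with 28 higher and 23 lower and 1 at 1.5-fold or more. The median was 0.08 for 11 other upper layer genes, 0.07 for 13 other layer 5 genes, 0.03 for 13 other layer 6 and subplate genes and −0.02 for 15 other excitatory neuron genes. The gene past 1.5-fold was Cartpt, which encodes a neuropeptide, with 6.56 in WT and 7.22 in KO on its only probe set. The lowest upper layer value belonged to Matn2, a matrilin gene, at −0.32. In layer 5 the range above the filter ran from −0.07 for the potassium channel gene Kcnn2 to 0.36 for Npr3, a natriuretic peptide receptor gene with 8.16 in WT and 8.52 in KO. In layer 6 and the subplate it ran from −0.22 for the lysophosphatidic acid receptor gene Lpar1 to 0.51 for the collagen gene Col5a1. The 3 probe sets of Col5a1 ranged from 0 to 0.51 and averaged 0.20. Its brightest had 6.35 in WT, below the filter value, and 6.86 in KO, so Col5a1 passed the filter only through the KO array. Lpar1 is also expressed in oligodendrocytes, whose 11 measured markers were all lower and above the filter, with a median of −0.27 and a summed signal of 73391 in WT and 65150 in KO; its part in the Lpar1 value was not tested. Among the excitatory neuron genes Arpp21, a gene of a phosphoprotein, was highest at 0.26 and the NMDA receptor gene Grin2b lowest at −0.20, or −0.05 averaged over its 4 probe sets.

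As a check of the tissue, all 11 general neuron markers lay above the filter, with a median log2 difference of 0.01, as did all 15 of the other excitatory neuron genes, including the cortical homeobox gene Emx1 at 8.34 in WT and 8.40 in KO. The 16 interneuron markers had a median of −0.045, with 6 higher and 9 lower, and the 11 hippocampus markers one of −0.04, with 3 higher and 7 lower. The hippocampus marker Spink8 had 10.19 in WT and 8.12 in KO on its only probe set. No gene on the arrays had a lower difference than its −2.07. No marker list other than those of the choroid plexus, meninges, oligodendrocytes and immediate early genes had a median beyond 0.1 in size.

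**Figure D4:**
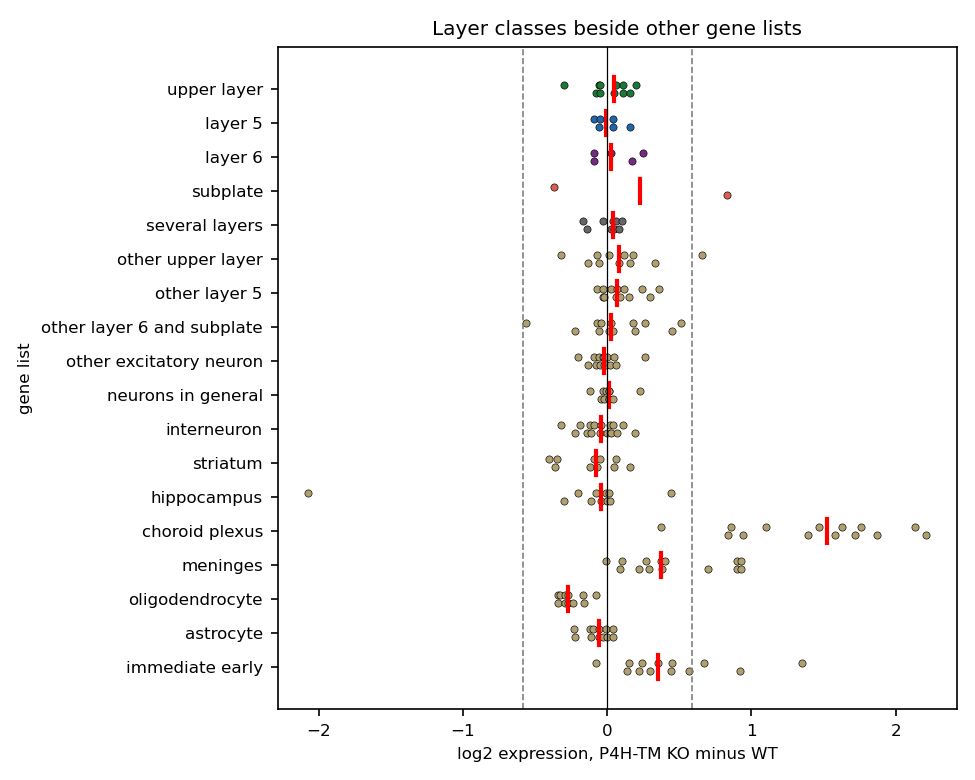
Log2 expression in KO minus WT (horizontal axis) for each measured gene (points) of the layer classes and of other gene lists (vertical axis); red bars are medians and dashed lines mark 1.5-fold. The layer class medians lie between −0.005 and 0.05 except the subplate at 0.23, those of the choroid plexus and the meninges lie at 1.525 and 0.375, and the hippocampus point at −2.07 is Spink8.

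No measured member lies on chromosome 9, which holds P4htm. Promoter sequences of RefSeq (GRCm38.p6, 300 bases around each transcript start) were at hand for 25 of the 33 members. Ccn2, the only member past 1.5-fold, and Nxph4 were not among the 25, so no subplate gene was searched. Since P4H-TM has been studied as a regulator of the hypoxia-inducible factor, the core letters ACGTG of its response element were searched on both strands. They occurred in 13 of these 25 members, or 52%, and in 26.1% of 14452 array genes with a promoter. The letters CAGATG, a form of the E-box that NeuroD factors bind, occurred in 7 of the 25 members, or 28%, and in 15.6% of the array genes. Genes with several starts have more chances of a match. Over all 27025 genes with a promoter, on the arrays or not, the shares were 21.8% for ACGTG and 19.2% for CAGATG. Counted by promoter, ACGTG occurred in 14 of the 36 member promoters, or 38.9%, and in 19.6% of all 32851 promoters. The 14 include overlapping promoters of Lmo4 that share the same match. CAGATG occurred in 7 of 36 member promoters, or 19.4%, and in 17.2% of all promoters. These promoters include genes not on the arrays, so their shares compare with those of all genes. On that ground the gap for CAGATG was smaller by promoter than by gene. A match is a description of letters and not a site. The stretch around a match is shown for 1 gene each of layer 6, of layers 2 and 3 and of layer 4, whose 3 or 4 probe sets all differed the same way. Capitals mark ACGTG or its reverse complement, or both where they overlap.
Sema3e (chr5:14025259-14025325, plus strand): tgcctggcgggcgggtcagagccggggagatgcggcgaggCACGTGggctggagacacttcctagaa
Rasgrf2 (chr13:92131831-92131915, minus strand): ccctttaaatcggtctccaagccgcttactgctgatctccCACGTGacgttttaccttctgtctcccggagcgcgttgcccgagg
Rorb (chr19:19001306-19001367, minus strand): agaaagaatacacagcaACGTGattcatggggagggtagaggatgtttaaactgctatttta
The match begins at position 24 after the start in Sema3e and at position −47 in Rasgrf2. In Rorb it begins at position −233 of an alternative start. On the brightest probe set Sema3e and Rasgrf2 differed by −0.09 and −0.06 and Rorb by 0.16. Whether the letters bear on these values was not tested.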

How the data were processed

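The RNA of 4 mice per genotype was pooled, labelled with biotin and hybridized to Affymetrix Mouse Genome arrays, 1 for WT and 1 for P4H-TM KO. The authors read signal intensities from the scans in the GeneChip Operating System and used GenePattern for normalization, the submitters' processing notes name RMA, and versions are not given in the sources used here. The deposited values are log2 expression values of 45101 probe sets, rounded to 2 decimals, from 2.69 to 14.91, with medians of 6.38 (WT) and 6.39 (P4H-TM KO). RMA forces the distributions of both arrays to be alike, so a shift of most genes would not show, and the number of arrays limits the precision. The platform annotation gives 1 symbol for 34945 probe sets other than the 64 controls and several for 932, and the rest were not named.

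Each gene took its brightest 1-symbol probe set, and differences are P4H-TM KO minus WT. The members, layer classes and lists were written from general knowledge, with earlier results of these data known. All members are named, and of the other layer lists those at 1.5-fold and the highest and lowest above the filter. From the other lists, Dcn, Igfbp2, Slc13a4, Slc47a1, Slc22a6, Foxc1, Col1a1, Col1a2, Lum, Aldh1a2, Islr, Ogn and Ptgds were named after their values were seen. So were Spink8, Ccn1, Egr1, Emx1, Ttr, Aqp1 and Tmem72, as well as Moxd1, Nr4a2 and Cplx3. Summed signals add 2 to the power of each log2 value over a list. Alternatives comprised averaged probe sets, centred arrays, a loess trend (span 0.3) removed, the signal filter, means, and other class borders. Further ones were thresholds of 0.32 on the log2 scale and of 2-fold. Another left out probe sets with names ending in _s_at, _x_at or _a_at, called suffixed probe sets. The calculation of differences was tested on simulated data. Calculations used pandas 2.3.3, numpy 2.4.6 and statsmodels 0.14.6 in Python 3.11.15, and figures matplotlib 3.10.9.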

Additional observations from a re-analysis of the deposited data

How the results depend on the processing

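No paired analysis was possible because there is 1 array per genotype, and for the same reason no replicate could be left out. The use of the second brightest probe set was chosen after seeing the data. A median was treated as stable within 0.147, the SD between all probe sets of a gene, divided by the root of the number of genes, and a single gene within 0.147. Of 76 alternative medians 65 stayed within this bound. With probe sets averaged, the medians were −0.09 for layer 6, 0.125 for the other upper layer genes and 0.02 for the other layer 5 genes. With the second brightest probe set they were −0.05 for the upper layer, −0.09 for layer 6, 0.13 for the other upper layer genes and −0.02 for the other layer 6 and subplate genes, so the sign of the upper layer and layer 6 medians depends on the probe set. The layer 6 median was also negative, at −0.03, over genes above the signal filter. The layer 5 median of −0.005 was 0.005 with probe sets averaged, 0.01 without suffixed probe sets and 0.02 with the second brightest, and its mean was 0.0067. Hence none of the upper layer, layer 5 and layer 6 medians kept its sign under every setting. The upper layer median was 0 without suffixed probe sets, where Otof has no value, and 0 with Pou3f1 and Pou3f2 counted in layer 5. The subplate median was 0.83 above the signal filter, where Ccn2 is its only gene, and 0.03 when joined with layer 6. At a threshold of 0.32 on the log2 scale, 1 member, Nxph4, counted as lower, and at 2-fold 0 members counted as higher. Of 192 alternative differences of single members 186 stayed within the bound. The others were those of Foxp2 and Pou3f1 (both averaged and second brightest) and of Pou3f2 and Tle4 (second brightest). Many of the 192 could not move, so this count does not measure stability. The signal filter leaves the value of a gene as it is, and centring hardly shifts it. For the 18 members with 1 probe set, the choice of probe set cannot change the value. Ccn2 was at least 1.5-fold higher under each alternative run other than the 2-fold threshold. Most of these runs could not change its value, because Ccn2 has 1 probe set, which lies above the filter. Its difference was 0.82 with centred arrays and 0.82 with the loess trend removed.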
